A study of Mus musculus with 10 samples.

Results

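The lysosomal genes of microglia, the resident macrophages of the brain, were compared between the midbrain and the striatum. The set held 55 genes picked by name from the 53715 genes of the count tables. It contained 11 cathepsins and other lysosomal proteases, 1 inhibitor of those proteases, 12 glycosidases and sulfatases, 7 lipid hydrolases and soluble cofactors, 7 lysosomal membrane proteins, 2 transcription factors and 15 subunits of the proton pump. All 55 were present in the files, and 54 passed the filter on low counts and were tested. The exception was Atp6v0d2, a pump subunit best known from osteoclasts, which had 4 counts over the midbrain libraries and 2 over the striatal libraries of the pilot cohort, and 4 and 0 counts in those of the second cohort.

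The cells came from untreated C57BL/6 mice aged 3 months (male C57BL/6J by the study's methods), with no transgene or other allele named, and were purified from papain-digested tissue with a Percoll step and CD11b beads. Polyadenylated RNA was counted by MARS-seq, a method that reads mostly the 3′ ends of transcripts. A pilot cohort gave 2 midbrain and 2 striatal libraries, and a second cohort gave 2 midbrain and 2 striatal libraries whose title and file name named the same region. The other 2 libraries of the second cohort had a title and a file name that named different regions, and they entered no comparison. CD11b beads also bind monocytes, neutrophils and border macrophages, so a library can hold more than microglia, whereas T cells lack CD11b. The study drew both regions from the same few mice of each experiment, but the sources did not match libraries to mice without conflict, since title numbers and file-name numbers differed in the second cohort. The libraries were therefore compared unpaired, and p-values measured only the spread between these libraries, which may in part be technical.

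Lysosomes break down material that a cell takes up or recycles. Proteases of the cathepsin family cut proteins, glycosidases and sulfatases take apart glycans and glycolipids, and lipid hydrolases with their cofactors clear membrane lipids. The vacuolar proton pump, made of a membrane sector (V0) and a cytosolic sector (V1), acidifies the lumen so that these enzymes work. Many genes of the set are under the transcription factors Tfeb and Tfe3, which bind an E-box-like DNA motif near the start of their targets. Microglia and other macrophages are rich in lysosomes, and inherited loss of several of these enzymes leads to storage disease of the brain.

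The promoters of 5 members are shown first, because they carry the motif of those factors to a very different extent. Promoter sequences (250 bases before to 50 after the transcription start, RefSeq, GRCm38.p6) were matched to 46 of the 55 members. Ctsc and Cst3 were the only members past the threshold in the pilot, second or joint fit, Gla had the largest difference among the glycosidases, and Ctsa and Lamp1 held several copies of the motif. Each sequence is written 5′ to 3′ on the strand of the gene, with every copy of CACGTG in capitals.
Ctsc (chr7:88277835-88278134, plus strand): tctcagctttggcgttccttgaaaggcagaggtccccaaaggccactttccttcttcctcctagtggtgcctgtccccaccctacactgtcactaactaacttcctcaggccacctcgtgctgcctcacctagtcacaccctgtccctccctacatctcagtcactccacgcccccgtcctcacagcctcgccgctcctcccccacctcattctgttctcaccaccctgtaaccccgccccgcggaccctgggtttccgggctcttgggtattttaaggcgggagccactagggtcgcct
Cst3 (chr2:148875463-148875762, minus strand): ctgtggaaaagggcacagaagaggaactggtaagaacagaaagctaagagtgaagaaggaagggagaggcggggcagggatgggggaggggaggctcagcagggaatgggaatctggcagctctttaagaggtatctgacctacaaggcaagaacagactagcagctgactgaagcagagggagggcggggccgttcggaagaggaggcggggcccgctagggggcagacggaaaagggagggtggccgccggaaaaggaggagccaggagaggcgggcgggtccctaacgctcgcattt
Gla (chrX:134600956-134601255, minus strand): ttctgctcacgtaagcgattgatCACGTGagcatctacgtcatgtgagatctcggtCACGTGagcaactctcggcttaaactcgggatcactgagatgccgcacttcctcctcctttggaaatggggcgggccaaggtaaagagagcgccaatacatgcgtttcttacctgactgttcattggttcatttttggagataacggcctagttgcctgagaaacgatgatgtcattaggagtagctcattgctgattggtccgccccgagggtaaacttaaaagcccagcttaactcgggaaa
Ctsa (chr2:164833523-164833822, plus strand, the downstream one of its starts): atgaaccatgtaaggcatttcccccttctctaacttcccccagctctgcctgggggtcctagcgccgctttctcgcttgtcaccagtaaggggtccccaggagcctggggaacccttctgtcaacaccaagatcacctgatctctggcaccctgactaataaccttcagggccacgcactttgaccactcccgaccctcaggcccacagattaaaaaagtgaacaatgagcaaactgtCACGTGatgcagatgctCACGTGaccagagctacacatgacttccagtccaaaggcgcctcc
Lamp1 (chr8:13158911-13159210, plus strand): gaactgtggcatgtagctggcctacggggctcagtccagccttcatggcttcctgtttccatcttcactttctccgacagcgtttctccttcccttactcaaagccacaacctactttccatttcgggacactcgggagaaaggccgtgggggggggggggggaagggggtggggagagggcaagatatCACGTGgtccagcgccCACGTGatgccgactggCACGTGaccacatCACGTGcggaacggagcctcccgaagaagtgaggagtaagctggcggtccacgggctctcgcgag

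The Ctsc and Cst3 windows held no CACGTG. In Gla the first bases of the copies lay 227 and 194 bases before the start, and in Lamp1 the 4 copies began 61, 45, 28 and 15 bases before it. Over the set, CACGTG, a palindrome that reads the same on both strands, was found in 16 of 46 members (34.8%), against 8.09% of 27025 genes with a promoter in the same table. The longer palindrome TCACGTGA, which contains CACGTG, was found in 7 members (15.2%) against 1.12% of all genes. Gla and Ctsa held it in both of their copies. With only the bases before the start, 14 and 5 members held the motifs. The 16 members with CACGTG had a median regional log2 fold change of −0.158, with 6 higher and 10 lower in the midbrain, and the 30 tested members without it had a median of −0.137, with 9 higher and 21 lower. The motif was thus common in the set, while members with and without it had nearly the same median regional difference. A match of letters does not show that a factor binds there.

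Library depth ranged from 575709 to 8463782 counts, a 14.7-fold span, and the shallowest library was replicate 3 of the striatum in the second cohort. A count of 3 corresponded to 5.21 CPM (counts scaled to the size of the library) there and to 0.35 CPM in the deepest library. Markers of microglia were lower in the midbrain for 14 of 14 genes tested, with a summed level of 17780 to 20710 CPM in the midbrain and 25110 to 29380 CPM in the striatum and a median log2 fold change of −0.557. Neutrophil markers were higher in the midbrain for 9 of 9 genes (761 to 6131 CPM against 301 to 519 CPM), monocyte markers for 11 of 11 (368 to 3302 CPM against 186 to 285 CPM), border macrophage markers for 9 of 9 (1959 to 3159 CPM against 618 to 1472 CPM) and T and NK cell markers for 7 of 7 (83.4 to 309 CPM against 13.2 to 61.3 CPM). Folr2 was at 0 in 6 of 8 libraries, and Cd3e was at 0 in most of them, whereas Mrc1, Ccr2 and S100a9 were counted in all 8. Dissociation and immediate early genes summed to 18750 and 22200 CPM in the midbrain and 14030 and 24450 CPM in the striatum of the pilot cohort, where the regions overlapped. They did not overlap in the second cohort, with 24190 and 22080 CPM against 12020 and 11210 CPM, where 11 of 12 of these genes were higher in the midbrain (median log2 fold change 1.014) and 6 were called at an unadjusted p under 0.01. The summed level of 7 myelin markers overlapped between the regions in both cohorts. Among them, Mbp and Mobp were higher in both midbrain libraries than in the striatal ones in the pilot cohort, and lower in the second. Genes of disease-associated microglia were higher in the midbrain for 9 of 11 tested and lower for 2 (joint median log2 fold change 0.828). They summed to 21890 and 21870 CPM against 12990 and 14540 CPM in the pilot cohort. The second cohort gave 24330 and 27920 CPM against 17380 and 12800 CPM. The leukocyte and border macrophage lists moved with region in the direction opposite to that of microglial markers, and the part of all these lists in the lysosomal values was not tested. In such bulk libraries, fewer cells of a type and less RNA per cell cannot be told apart.

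**Figure D1:**
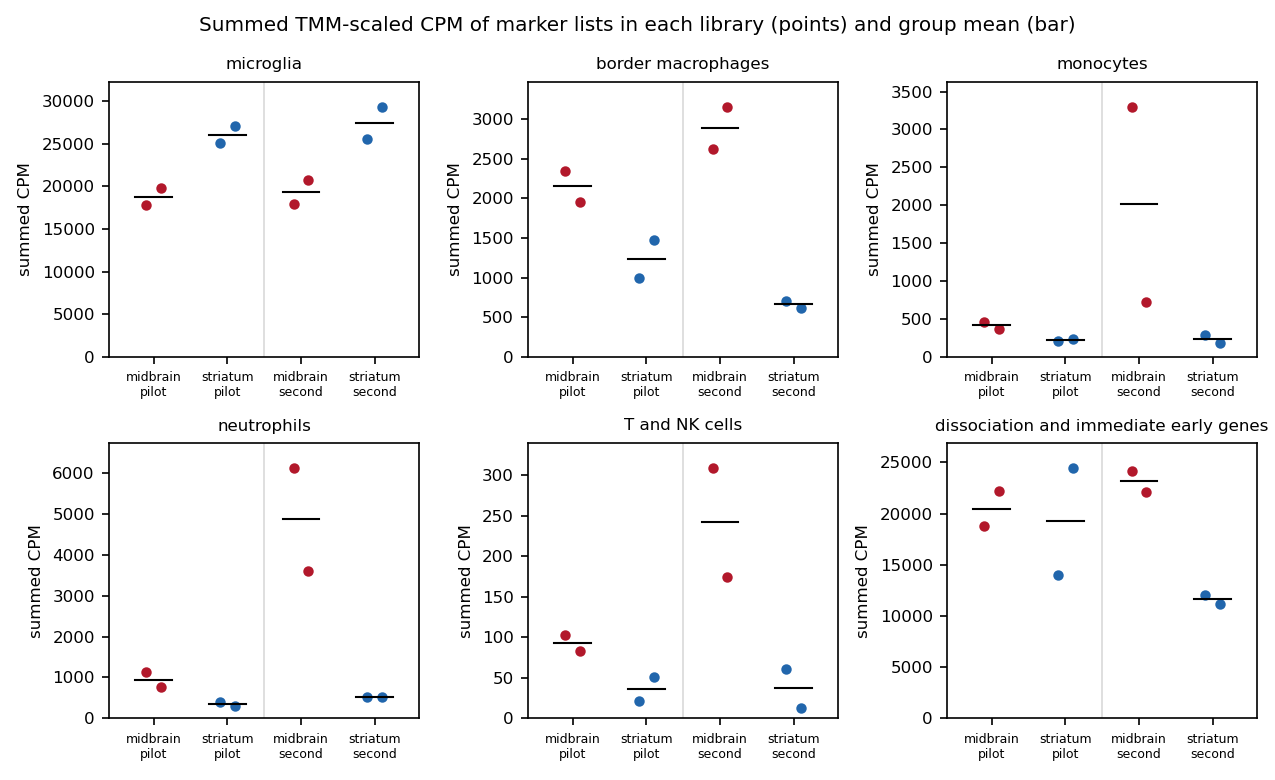
Summed TMM-scaled CPM of 6 marker lists (vertical axis) in the 8 libraries, grouped by region and cohort (horizontal axis), with red points for midbrain, blue points for striatum and bars for group means. Microglial markers sit between 17780 and 20710 CPM in the midbrain and between 25110 and 29380 CPM in the striatum, while the leukocyte lists are higher in the midbrain, and monocyte and neutrophil markers are highest in replicate 1 of its second cohort.

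Levels below are CPM scaled by the trimmed mean of M values (TMM), and differences are log2 fold changes of midbrain over striatum from limma with voom, with their standard error (SE). In a single cohort a gene was called at an unadjusted p under 0.01, the threshold used in the study. In the joint fit of both cohorts, with cohort as a term, it was called at a Benjamini-Hochberg adjusted p under 0.05 over all 14053 genes tested.

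The regional difference of the lysosomal genes was small and mostly toward the striatum. In the pilot cohort 1 of 54 members was called higher in the midbrain, against 2.09% of all genes, and 0 were called higher in the striatum, against 0.548%. In the second cohort 0 members were called higher in the midbrain, against 2.88%, and 1 was called higher in the striatum, against 0.593%. The joint fit called 1 member higher in the midbrain (0.975% of all genes) and 0 higher in the striatum (0.0854%). A single gene of 54 is 1.85%, so none of these shares rested on more than 1 gene. At an unadjusted p under 0.05 the joint fit held 3 members higher in the midbrain, against 9.35% of all genes, and 9 higher in the striatum, against 5.21%.

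Direction leaned one way without reaching the calls. The log2 fold change was below 0 for 38 of 54 members in the pilot cohort, 38 of 54 in the second and 37 of 54 in the joint fit. Of all genes, 48.4%, 50.1% and 45.6% were below 0 in these fits. The median log2 fold change of the members was −0.102, −0.229 and −0.137 in these fits, and that of all genes was 0.018, −0.001 and 0.044. Together the 55 genes took 7.42% and 8.62% of all counts in the midbrain libraries of the pilot cohort and 8.92% and 9.15% in its striatal libraries. In the second cohort they took 7.75% and 8.80% in the midbrain and 13.19% and 11.61% in the striatum. This share of raw counts was lower in every midbrain library than in the striatal libraries of its own cohort. After TMM scaling the summed level overlapped in the pilot cohort, with 70680 and 83800 CPM in the midbrain and 83080 and 95770 CPM in the striatum, and did not in the second, with 85660 and 91920 CPM against 133400 and 110100 CPM. Most of the difference in the second cohort lay in a single gene, Cst3. Both midbrain libraries lay below both striatal ones for 17 of 54 members in the pilot cohort (22.6% of all genes) and for 19 of 54 in the second (15.3%), and above them for 6 (19.9%) and 10 (26.3%).

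**Figure D2:**
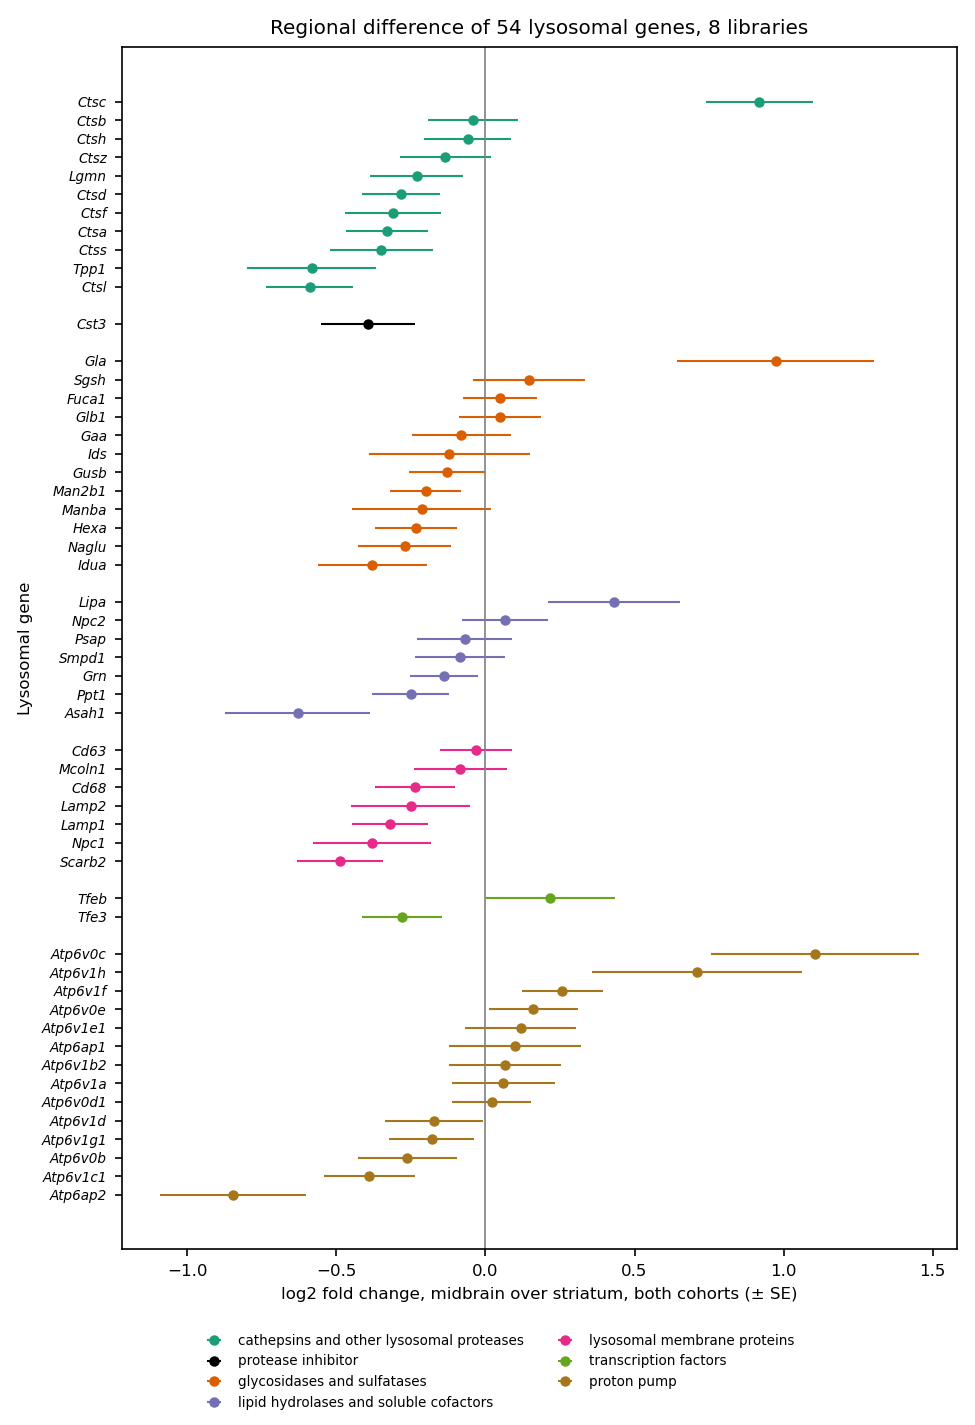
Joint log2 fold change of midbrain over striatum (horizontal axis, bars are ± SE) for the 54 tested lysosomal genes (vertical axis), coloured by class. Ctsc at 0.92 stands apart from the other proteases, all of which lie below 0, and the proton pump spreads from −0.85 to 1.11.

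Among the proteases, 1 of 11 was higher and 10 were lower in the midbrain, with a class median of −0.284 in the joint fit, −0.177 in the pilot cohort and −0.396 in the second. The gene that was higher was Ctsc, and it was the only member called in the joint fit. Ctsc (ENSMUSG00000030560, chr7:88278085-88310888, GRCm38) encodes cathepsin C, the dipeptidyl peptidase that activates the serine proteases in granules of neutrophils and cytotoxic lymphocytes. Its level was 448 and 500 CPM in the midbrain and 274 and 234 CPM in the striatum of the pilot cohort. The second cohort gave 931 and 649 CPM in the midbrain and 331 and 562 CPM in the striatum. The groups did not overlap in either cohort, but the higher striatal library of the second cohort lay above both midbrain libraries of the pilot cohort. The log2 fold change was 0.92 (SE 0.179, n = 2 and 2) in the pilot cohort, where it passed the unadjusted threshold with a limma adjusted p = 0.173, 0.84 (SE 0.303, n = 2 and 2, adjusted p = 0.349) in the second and 0.92 (SE 0.181, n = 4 and 4, limma adjusted p = 0.041) in both. Of the 8 joint fits without 1 library, only that without replicate 3 of the midbrain in the second cohort kept the call (adjusted p = 0.0309), and in the other 7 the adjusted p ran from 0.0535 to 0.185 with log2 fold changes of 0.72 to 1.03. The pilot call was also lost without midbrain replicate 1 (log2 fold change 1.01) or 2 (0.84), in fits where 1 midbrain library faced 2 striatal ones and was assumed to vary like them. Neutrophil, monocyte and lymphocyte markers were higher in the same midbrain libraries, and their part in the Ctsc difference was not tested.

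Ctss, the cysteine protease cathepsin S that trims the invariant chain of MHC class II, had the highest mean level of the proteases over the 8 libraries, at 7867 CPM per kilobase of exon against 4171 for Ctsd, the aspartic protease cathepsin D. Scaling by length is approximate for counts from 3′ ends, 34.4% of the exonic length of Ctsd was shared with another gene, and unscaled CPM was higher for Ctsd than for Ctss in 3 of the 4 pilot libraries. The level of Ctss was 6383 and 7368 CPM in the midbrain and 6972 and 12330 CPM in the striatum of the pilot cohort, and 10470 and 13140 CPM against 12210 and 16590 CPM in the second. The groups overlapped in both cohorts, and the joint log2 fold change of −0.35 (SE 0.173, limma adjusted p = 0.381) missed the threshold. Ctsl and Tpp1, singled out after their values were seen, had the lowest fold changes of the class. Ctsl, the endopeptidase cathepsin L, was measured at 780 and 898 CPM in the midbrain and 1051 and 1584 CPM in the striatum of the pilot cohort, and at 1291 and 1702 CPM against 2234 and 2145 CPM in the second. Both midbrain libraries were below both striatal ones in each cohort, and the joint log2 fold change of −0.59 (SE 0.145) stayed over the threshold (limma adjusted p = 0.0817). Of 8 alternative settings 3 called it, among them DESeq2 (adjusted p = 0.0245), and 0 of the 8 joint fits without 1 library did. Of its exonic length, 26.8% was shared with other annotated genes, where counting by gene cannot tell them apart. Tpp1, the tripeptidyl peptidase lost in a neuronal ceroid lipofuscinosis, had a joint log2 fold change of −0.58 (SE 0.216, limma adjusted p = 0.235).

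The other proteases passed in none of the pilot, second and joint fits with all libraries. The joint log2 fold change was −0.33 for Ctsa, the carboxypeptidase that also protects β-galactosidase, −0.31 for the cysteine protease Ctsf, −0.28 for Ctsd and −0.23 for Lgmn, the asparaginyl endopeptidase. It was −0.14 for the carboxypeptidase Ctsz, −0.06 for the aminopeptidase Ctsh and −0.04 for the endopeptidase Ctsb. Summed over the class, the level was 24530 and 27040 CPM in the midbrain and 27030 and 36830 CPM in the striatum of the pilot cohort, where the groups overlapped. It was 28290 and 35110 CPM in the midbrain and 36360 and 39290 CPM in the striatum of the second cohort, where they did not overlap.

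Cst3 (ENSMUSG00000027447, chr2:148871722-148875692) encodes cystatin C, a secreted inhibitor of cysteine cathepsins, and was by far the most abundant member, with 39770 CPM per kb. In the pilot cohort it was at 34270 and 45460 CPM in the midbrain and at 44120 and 44770 CPM in the striatum, so the groups overlapped. In the second cohort it was at 45420 and 45760 CPM in the midbrain and at 84510 and 58500 CPM in the striatum, and the striatal libraries stood apart from the other 6. The log2 fold change was −0.15 (SE 0.218, limma adjusted p = 0.809) in the pilot cohort and −0.70 (SE 0.207, adjusted p = 0.244) in the second, where it passed the unadjusted threshold. Cst3 was the only member called higher in the striatum in that cohort. The call was lost under the quasi-likelihood test of edgeR (−0.71), DESeq2 (−0.70) and a minimum of 10 counts in every library (−0.63). It was also lost in the fits with a single striatal library, assumed to vary like the midbrain pair, at −0.46 without replicate 1 and −0.93 without replicate 3. The joint log2 fold change was −0.39 (SE 0.159, limma adjusted p = 0.283), and it passed only without the filter on low counts (adjusted p = 0.0395). Cst3 is also strongly expressed by astrocytes, and the summed level of 7 astrocyte markers was 1523 CPM in striatal replicate 1 of the second cohort, the library with the highest Cst3, against 214 to 689 CPM in the other 7, and its part in the Cst3 difference was not tested.

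**Figure D3:**
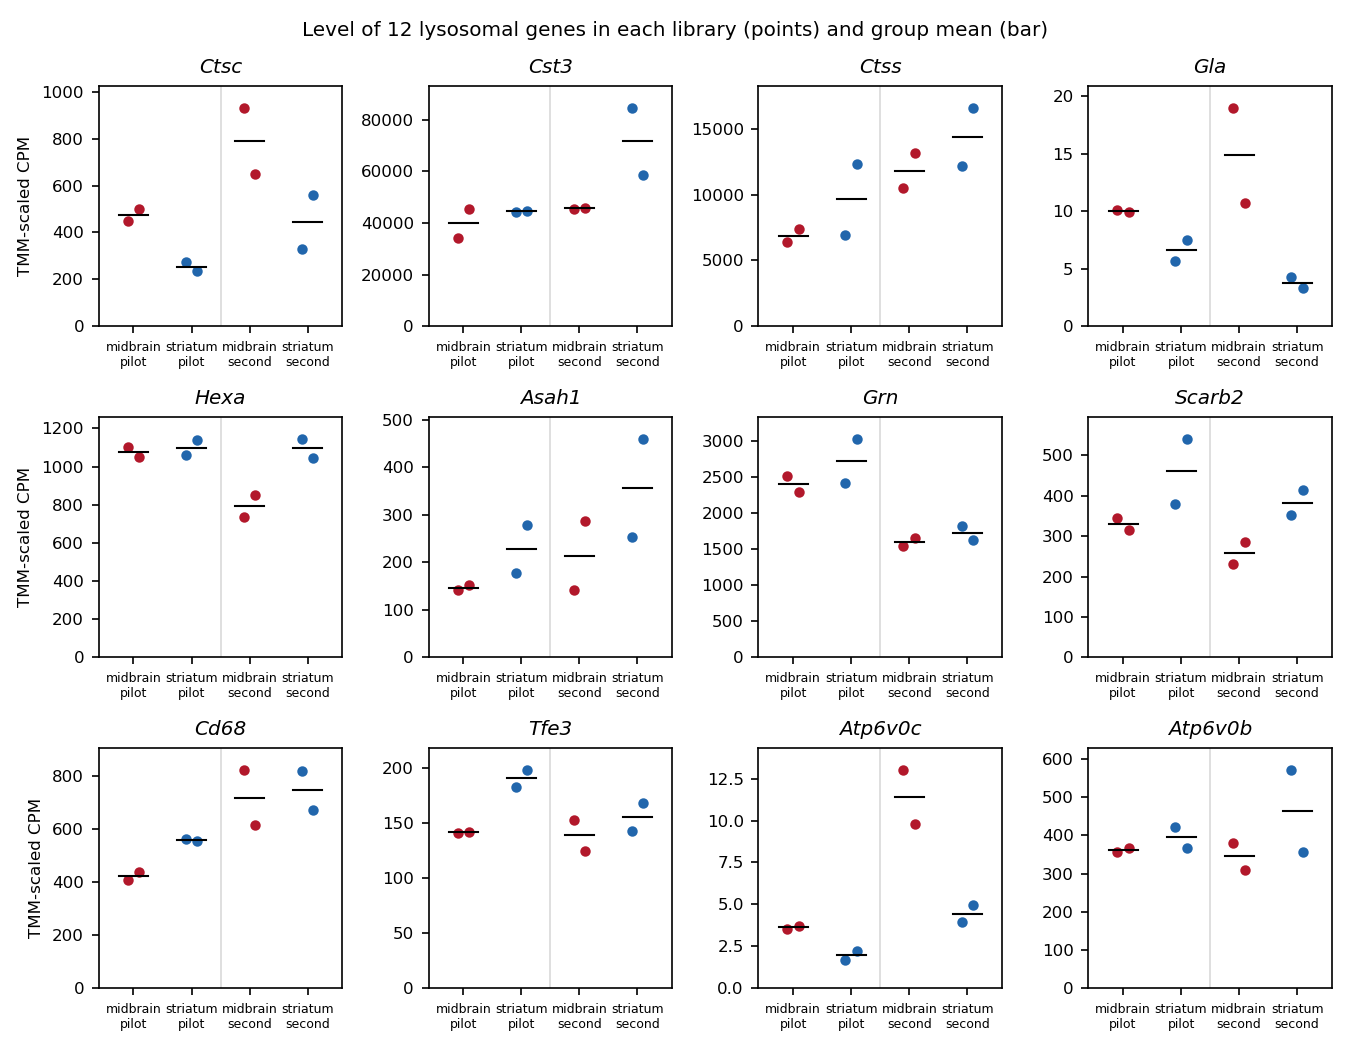
TMM-scaled CPM (vertical axis, starting at 0 in each panel) of 12 lysosomal genes in the 8 libraries, grouped by region and cohort (horizontal axis), with red points for midbrain, blue points for striatum and bars for group means. Ctsc and Gla are higher in both midbrain groups, while the striatal libraries of the second cohort stand above the rest for Cst3.

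Of the glycosidases and sulfatases, 4 of 12 were higher and 8 were lower in the midbrain, with a joint class median of −0.125 (−0.022 in the pilot cohort and −0.197 in the second), and none was called. Gla (ENSMUSG00000031266, chrX:134588149-134601125), the α-galactosidase A lost in Fabry disease, had the largest difference. It was at 10.1 and 9.9 CPM in the midbrain and 5.7 and 7.5 CPM in the striatum of the pilot cohort. The midbrain libraries of the second cohort had 19.0 and 10.7 CPM and the striatal ones 4.3 and 3.3 CPM. The groups did not overlap in either cohort, but the gene was thinly counted, with 14 counts over both striatal libraries of the second cohort. The joint log2 fold change was 0.97 (SE 0.331, limma adjusted p = 0.201), with 0.60 in the pilot cohort and 1.68 in the second.

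Hexa, the α subunit of β-hexosaminidase that is lost in Tay-Sachs disease, had the highest mean CPM of the class over the 8 libraries, with 1016 against 1004 for Man2b1, which was higher than Hexa in 3 of the 4 libraries of the second cohort. Hexa was at 1102 and 1050 CPM in the midbrain and 1061 and 1137 CPM in the striatum of the pilot cohort, and at 736 and 852 CPM against 1145 and 1046 CPM in the second. The regions overlapped in the pilot cohort and not in the second, and the joint log2 fold change was −0.23 (SE 0.138, limma adjusted p = 0.47). The enzymes of heparan sulfate breakdown gave joint log2 fold changes of −0.38 for Idua, −0.27 for Naglu, −0.12 for Ids and 0.15 for Sgsh, and −0.13 for Gusb, the β-glucuronidase that also acts there. Those of other glycans gave −0.21 for Manba, −0.20 for Man2b1, −0.08 for Gaa, 0.05 for Fuca1 and 0.05 for Glb1. The summed level of the class was 2872 CPM in both midbrain libraries and 2966 and 3271 CPM in the striatal libraries of the pilot cohort, and 2587 and 2617 CPM against 3076 and 3179 CPM in the second.

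Of the lipid hydrolases and cofactors, 2 of 7 were higher and 5 were lower in the midbrain, with a joint median of −0.084, and none was called. Asah1 (acid ceramidase) had the largest difference. It was at 142 and 151 CPM in the midbrain and 177 and 278 CPM in the striatum of the pilot cohort, where the groups did not overlap. In the second cohort it was at 141 and 286 CPM in the midbrain and 254 and 460 CPM in the striatum, where they did. The joint log2 fold change was −0.63 (SE 0.242, limma adjusted p = 0.257). Grn, the precursor of the granulins, whose loss causes frontotemporal dementia or lipofuscinosis, had the highest level. It was at 2504 and 2281 CPM in the midbrain and 2410 and 3023 CPM in the striatum of the pilot cohort, and at 1541 and 1646 CPM against 1818 and 1628 CPM in the second. The regions overlapped in both cohorts, at a joint log2 fold change of −0.14 (SE 0.114, limma adjusted p = 0.619). The remaining members gave 0.43 for Lipa (acid lipase), 0.07 for the cholesterol carrier Npc2, −0.07 for Psap, the saposin precursor, −0.08 for Smpd1 (acid sphingomyelinase) and −0.25 for the thioesterase Ppt1.

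All 7 lysosomal membrane proteins had a joint log2 fold change below 0, with a class median of −0.251, −0.178 in the pilot cohort and −0.326 in the second, and none was called. Scarb2 (LIMP-2), the receptor that carries β-glucocerebrosidase to the lysosome, had the largest difference. It was at 346 and 315 CPM in the midbrain and 380 and 541 CPM in the striatum of the pilot cohort, and at 232 and 287 CPM against 352 and 414 CPM in the second. Each midbrain library was below both striatal libraries of its cohort, and the joint log2 fold change of −0.49 (SE 0.145, limma adjusted p = 0.141) missed the adjusted threshold. Cd68, a heavily glycosylated macrophage protein, had the highest mean CPM of the class over the 8 libraries, although Lamp1 was above it in 3 of the 4 pilot libraries. Cd68 was at 409 and 438 CPM in the midbrain and 563 and 556 CPM in the striatum of the pilot cohort. In the second cohort it was at 822 and 613 CPM in the midbrain and 819 and 672 CPM in the striatum, where the regions overlapped. Its joint log2 fold change was −0.24 (SE 0.135, limma adjusted p = 0.455). The structural glycoproteins gave −0.32 for Lamp1 and −0.25 for Lamp2, the cholesterol exporter Npc1 gave −0.38, the calcium channel Mcoln1 gave −0.08 and the tetraspanin Cd63 gave −0.03. Summed, the class was at 1843 and 1881 CPM in the midbrain and 2128 and 2455 CPM in the striatum of the pilot cohort, and at 2168 and 2119 CPM against 2503 and 2466 CPM in the second, with no overlap between the regions in either.

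The 2 transcription factors differed in sign in the joint fit. Tfe3 was at 141 and 142 CPM in the midbrain and 183 and 198 CPM in the striatum of the pilot cohort, and at 153 and 125 CPM against 142 and 168 CPM in the second. It was lower in both midbrain libraries of the pilot cohort and overlapped in the second, and its joint log2 fold change was −0.28 (SE 0.135, limma adjusted p = 0.368). The joint log2 fold change of Tfeb was 0.22 (limma adjusted p = 0.686). Its sign varied with the cohort, from 0.47 in the pilot cohort to −0.33 in the second, with no overlap between the regions in either. In the second cohort both factors were thus lower in the midbrain.

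**Figure D4:**
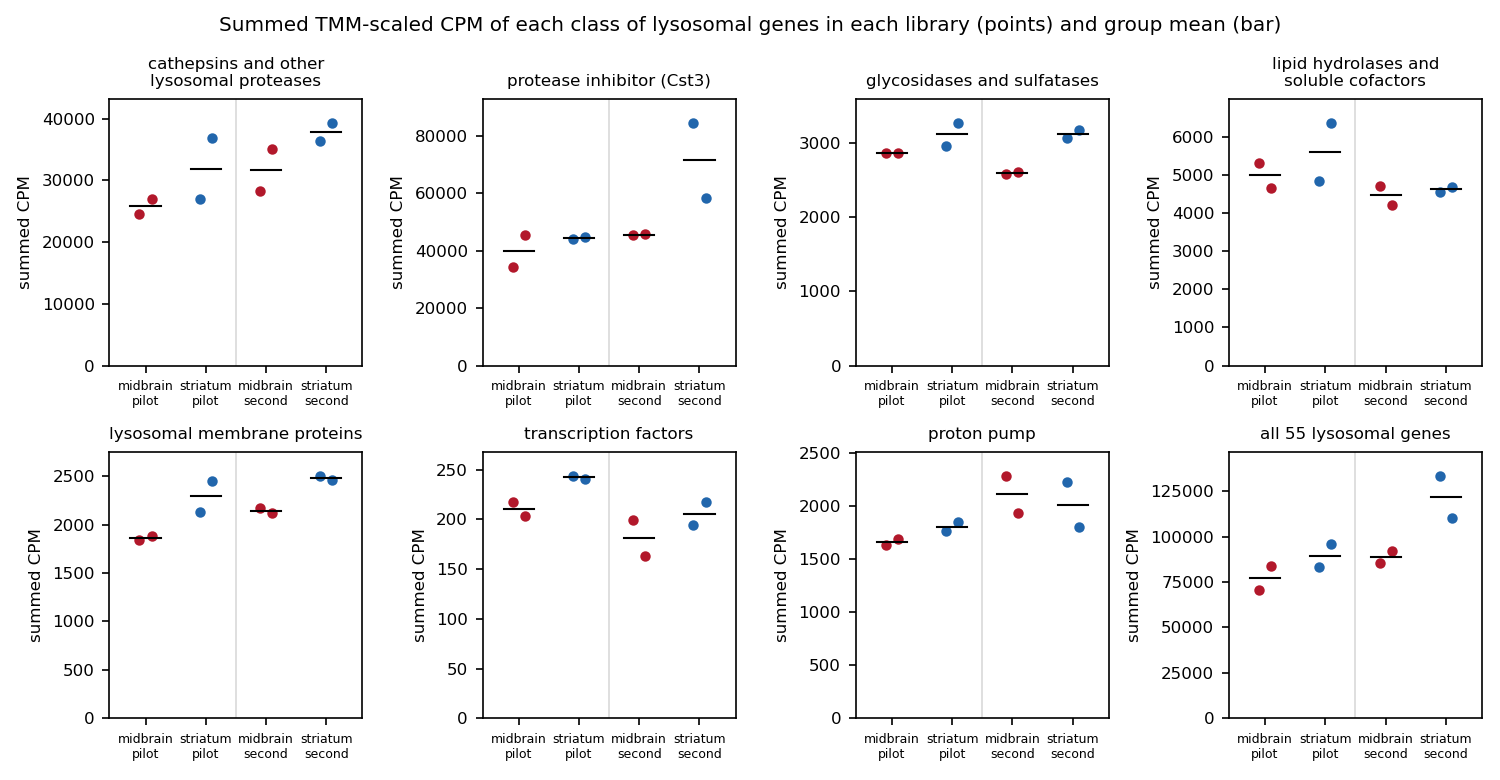
Summed TMM-scaled CPM (vertical axis, starting at 0 in each panel) of each class and of all 55 lysosomal genes in the 8 libraries, grouped by region and cohort (horizontal axis), with red points for midbrain, blue points for striatum and bars for group means. Membrane proteins and glycosidases are lower in the midbrain in both cohorts with no overlap, while the proton pump is at 1634 to 1685 CPM against 1767 to 1845 CPM in the pilot cohort and overlaps in the second.

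The direction of the proton pump genes varied with the cohort, and no test compared the pump with the other classes. Of its 14 tested subunits, 9 were higher and 5 were lower in the midbrain in the joint fit, with a median of 0.062, against 5 higher and 9 lower (−0.076) in the pilot cohort and 8 higher and 6 lower (0.168) in the second. The joint median fell to −0.051 without replicate 1 of the midbrain in the second cohort. Under the other processing settings it ran from −0.011 to 0.095, so its sign was not stable. No subunit was called. By sector, the joint median was 0.090 for the 4 tested V0 subunits, 0.062 for the 8 V1 subunits and −0.374 for the 2 accessory proteins.

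Atp6v0c, the proteolipid that forms the rotor ring of V0, had the largest difference of the pump. It was at 3.5 and 3.7 CPM in the midbrain and 1.7 and 2.2 CPM in the striatum of the pilot cohort, and at 13 and 9.8 CPM against 3.9 and 4.9 CPM in the second. The regions did not overlap in either cohort, yet only 27 and 14 counts stood behind the striatal values of the pilot and second cohorts. The joint log2 fold change was 1.11 (SE 0.349, limma adjusted p = 0.167), and 27.4% of the exonic length was shared with another annotated gene on the same strand. Atp6v0b, a further subunit of that ring, had the highest level, with 357 and 366 CPM in the midbrain and 423 and 366 CPM in the striatum of the pilot cohort, and 380 and 310 CPM against 571 and 356 CPM in the second. The regions overlapped in both cohorts and gave a joint log2 fold change of −0.26 (SE 0.166, limma adjusted p = 0.501). Atp6ap2, the accessory protein also known as the prorenin receptor, was singled out after its values were seen as the lowest of all members. It was at 38.8 and 59.3 CPM in the midbrain and 69.4 and 101 CPM in the striatum of the pilot cohort, and at 58.3 and 127 CPM against 154 and 176 CPM in the second. Both midbrain libraries were below both striatal ones in each cohort, and the joint log2 fold change was −0.85 (SE 0.245, limma adjusted p = 0.129), with an adjusted p of 0.0399 without replicate 3 of the midbrain in the second cohort. In the order of their joint log2 fold changes, the remaining subunits ran from 0.71 for Atp6v1h and 0.26 for Atp6v1f to −0.18 for Atp6v1g1 and −0.39 for Atp6v1c1.

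The question whether the regional differences were the same in both cohorts was asked with an interaction term. It called 0 of 54 members in either direction, as it called 0% of all genes higher and 0% lower (limma adjusted p under 0.05). At an unadjusted p under 0.05 it held 2 members with a positive term, against 2.42% of all genes, and 4 with a negative term, against 3.07%. DESeq2 and the quasi-likelihood test of edgeR also called 0 members. Leaving aside tests, 9 members separated the regions the same way in both cohorts, against 14.3% of all genes. Of these, 3 were higher in the midbrain (Ctsc, Gla and Atp6v0c) and 6 were lower (Ctsl, Ppt1, Lamp1, Scarb2, Atp6ap2 and Atp6v1c1). A further 5 separated them in opposite ways, against 4.38% of all genes. Over all 8 libraries at once, 1 member, Gla, had every midbrain library above every striatal one (4.26% of all genes), and 2 members, Scarb2 and Atp6v1c1, had every midbrain library below (2.38%). The Gla value of striatal replicate 3 of the second cohort, 3.3 CPM, lay under a count of 3, which corresponded to 5.21 CPM there.

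**Figure D5:**
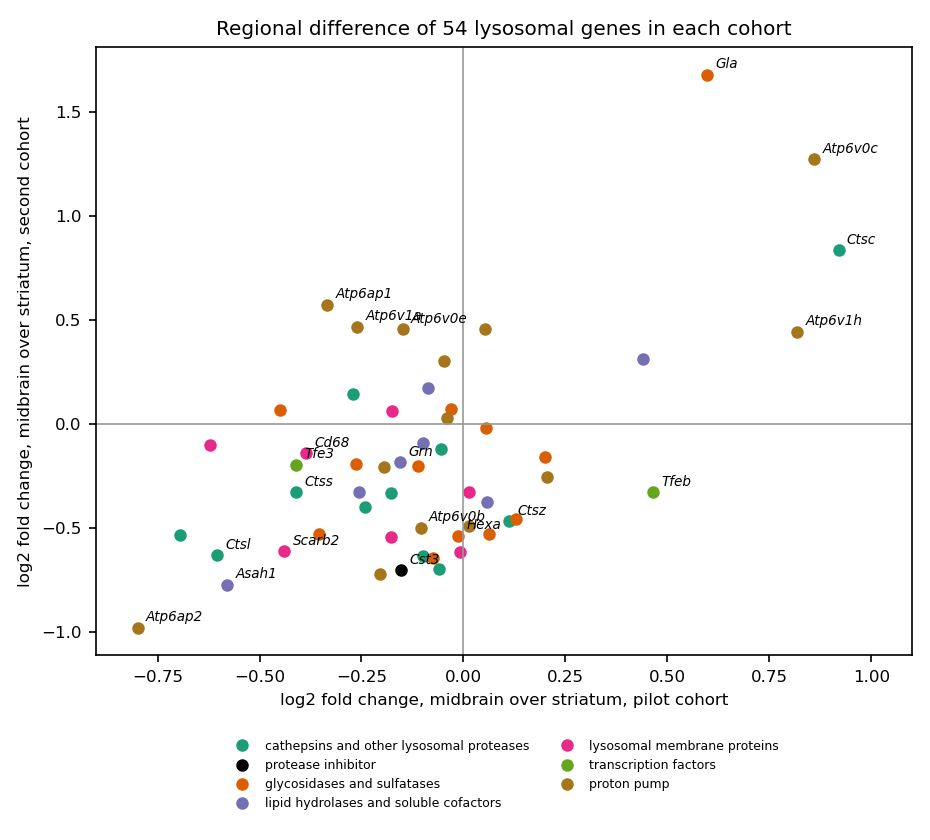
Log2 fold change of midbrain over striatum in the pilot cohort (horizontal axis) and the second cohort (vertical axis) for 54 lysosomal genes, each point a gene coloured by class. Ctsc, Gla and Atp6v0c lie at the upper right, Atp6ap2 at the lower left with −0.80 and −0.98, and Atp6ap1, Atp6v1a and Atp6v0e at the upper left.

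Beyond the set, 82 other lysosomal genes were examined, of which 71 were tested in the joint fit. Of these, 26 were higher and 45 were lower in the midbrain, with a median of −0.125, close to that of the members, and 2 were called higher against 0.975% of all genes. Plbd1, a phospholipase B-like protein of granulocytes and other phagocytes, was at 83.8 and 90.1 CPM in the midbrain and 17.6 and 48.6 CPM in the striatum of the pilot cohort, and at 297 and 107 CPM against 25.1 and 29.7 CPM in the second. Its joint log2 fold change was 1.98 (SE 0.409, limma adjusted p = 0.0445). Acp5, the tartrate-resistant acid phosphatase of osteoclasts and activated macrophages, was thinly counted at 9.8 and 8.9 CPM against 4.3 and 2.6 CPM in the pilot cohort and 14.1 and 10.0 CPM against 2.2 and 1.6 CPM in the second, and its joint log2 fold change was 1.82 (SE 0.35, limma adjusted p = 0.038). Every midbrain library was above every striatal one for both genes. The call of Plbd1 was kept in 3 and that of Acp5 in 2 of the 8 joint fits without 1 library, in which the adjusted p reached 0.212 and 0.165 while the log2 fold changes ran from 1.64 to 2.54 and from 1.65 to 2.10. Hgsnat, the acetyltransferase of heparan sulfate breakdown, was called in the pilot cohort alone (log2 fold change 0.68, limma adjusted p = 0.365), where it passed the unadjusted threshold, and that call was lost in the fits with a single midbrain library (0.61 and 0.76). Ctsw, a cathepsin of cytotoxic lymphocytes, had a joint log2 fold change of 1.27 (limma adjusted p = 0.208). By class, 4 of 18 other membrane and sorting proteins were higher and 14 lower in the midbrain (median −0.17), as were 5 and 11 of 16 other glycosidases and sulfatases (−0.177), 5 and 8 of 13 other lipid hydrolases, cofactors and nucleases (−0.022) and 1 and 4 of 5 other pump subunits (−0.189). The other proteases and inhibitors went the opposite way to those of the set, with 5 of 7 higher (0.188), and the nutrient sensing genes were split, with 6 higher and 6 lower (−0.084).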

How the data were processed

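CD11b-purified microglia were profiled by bulk MARS-seq. The authors aligned reads to GRCm38 with STAR 2.5.3a, ran FastQC and counted exonic reads per Gencode M17 gene with featureCounts 1.6.0, and they deposited raw read counts for each library. Whether molecular identifiers were collapsed, and the strand setting of the counting, are not given in the sources used here. From these counts, TMM-scaled CPM (edgeR 4.0.16) and regional differences (voom and limma 3.58.1, R 4.3.3) were computed. A gene entered a fit unless its count was below 6 in over 50% of the libraries fitted, and p-values were adjusted over all genes of the fit. Each cohort was fitted alone and both were fitted jointly with a cohort term. Alternatives used the quasi-likelihood test of edgeR, DESeq2 1.42.0, no TMM factor, no filter, at least 10 counts in every library, a replicate block, thinning to the smallest library, quality weights and the omission of each library. Scripts were tested on simulated data. Described genes were those called in any fit, plus in each class the gene with the largest joint difference and the most abundant one. Members and lists were chosen with earlier results of these data known. Symbols were matched for 53620 of 53715 gene identifiers. Counting intervals and floors cover counting error only.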

Additional observations from a re-analysis of the deposited data

Results flagged for a closer look

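In 5 members the regional difference had opposite signs in the cohorts, with no overlap between the regions in either. The interaction term, which is the regional log2 fold change of the second cohort minus that of the pilot cohort, was −0.607 for the carboxypeptidase Ctsz, from 0.11 to −0.47, and −0.826 for Tfeb, from 0.47 to −0.33. It was 0.861 for the accessory pump protein Atp6ap1, from −0.33 to 0.58, 0.576 for the V0 subunit Atp6v0e, from −0.15 to 0.46, and 0.684 for the V1 subunit Atp6v1a, from −0.26 to 0.47. The limma adjusted p of the interaction was 0.860 for all 5, so the difference between cohorts was tested and did not pass. Of all genes tested, 4.38% showed such opposite separation.

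Atp6ap1, Atp6v0e and Atp6v1a belong to the proton pump, and in each of them replicate 1 of the midbrain in the second cohort had the highest level of all 8 libraries. For Atp6ap1 that library had 320 CPM and the other 7 had 114 to 177 CPM.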

How the results depend on the processing

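Under the alternative settings, 154 values of the counts of calls and class medians stayed near the reported value and 33 moved. For the single genes described, none changed sign, 41 values fell out of the called range and 7 entered it. A further 319 values were scored as unchanged. Most were single genes on the same side of the threshold. That count also held the median of all genes and the motif counts, to which no threshold applied. Members called in the pilot cohort (1) numbered 3 with DESeq2, 2 with library size only, 5 without a filter, 2 with the replicate block, 3 with quality weights, 0 at an adjusted p under 0.05 and 0 to 16 without 1 library. The 16 came without striatal replicate 1, when 16.8% of all genes were called. Members called in the second cohort (1) numbered 0 with the quasi-likelihood test, 0 with DESeq2, 2 with library size only, 4 without a filter, 0 with at least 10 counts in every library, 6 with the block, 0 at an adjusted p under 0.05 and 0 to 11 without 1 library. The 11 came without midbrain replicate 3, when 10.1% of all genes were called. Members called in the joint fit (1) numbered 2 with DESeq2, 3 without a filter, 4 with the block, 5 at an unadjusted p under 0.01 and 0 to 2 without 1 library. Apart from the 16 and the 11, these counts are given without the share of all genes called under the same setting. They can therefore not be read as a trait of the lysosomal set. Thinning moved the median of the glycosidases to −0.23 and that of the transcription factors to −0.167, and the proton pump median ran from −0.051 to 0.114 without 1 library. Without a filter the median of all genes was −0.115, against 0.044.

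Replicate numbers could not be taken to pair the libraries, since those in the titles and in the file names differed in the second cohort and same-numbered libraries may be different mice. Deviations of same-numbered libraries from their group means correlated at −0.034 in the pilot cohort and 0.077 in the second, so the blocked values are hard to interpret. With the replicate block, the calls of Ctsc remained, and Asah1 (adjusted p = 0.038), Ctsl (0.0363) and Atp6ap2 (0.0319) also passed in the joint fit. The interaction called 0 members under every setting run. The filter on low counts left Atp6v0d2 untested, and Gla, Atp6v0c and Acp5 were thinly counted. A floor of 3 counts is 5.21 CPM in the shallowest library.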

Other observations

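The 2 libraries of the second cohort whose title and file name named different regions are given as single values. Their CPM used TMM factors computed over all 10 libraries, whereas the levels above used factors computed over the 8 assigned libraries. The first, titled midbrain with a striatal file name, had 1584013 counts, of which 9.26% fell on the 55 lysosomal genes. The second, titled striatum with a midbrain file name, had 5194739 counts and 7.57%. Ctsc was at 470 CPM in the first and 582 CPM in the second, and Cst3 was at 44690 and 37150 CPM. Ctss was at 10730 and 8781 CPM, Ctsl at 1595 and 2287 CPM, Scarb2 at 416 and 287 CPM, Asah1 at 320 and 270 CPM and Gla at 5.3 and 11.7 CPM. No group was inferred from these values.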
